A study of Mus musculus with 11 samples.

Results

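The genes described here are the 45 mouse genes by which a secretory cell moves new proteins into the endoplasmic reticulum (ER), folds them, discards those that fail to fold and adjusts this capacity. They were chosen by name for these functions, out of 22196 genes in the deposited tables, and all 45 had enough reads to be tested. They comprise 12 genes of translocation and signal peptide removal, 12 chaperones and their partners, 7 oxidative folding enzymes, 8 genes of ER degradation and 6 sensors and transcription factors of the unfolded protein response. The RNA came from whole inguinal mammary glands, taken 16 days after delivery from mice on chow, and each of the 11 libraries is labelled as its own sample. The 6 Knockout libraries carry the genotype Tsc1-fl/fl; Adipoq-Cre-Tg/+, and the 5 Wild-Type libraries carry Tsc1-fl/fl; Adipoq-Cre-+/+. Both groups therefore share the floxed Tsc1 alleles and differ in the Cre transgene, whose Adipoq promoter is active in adipocytes, so that an effect of Cre itself and of the Tsc1 deletion cannot be told apart. The strain field names the adipocyte knockout for both groups, and the age field reads PND16.5. The labels name no litter, batch or date, and they do not say whether each sample was a separate animal, so p-values measure the spread between these samples.

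Proteins destined for secretion enter the ER through the Sec61 channel, where the translocon-associated Ssr proteins and the signal peptidase act on the growing chain. Inside, Hspa5 (BiP) and its co-chaperones hold unfolded chains, the lectins calnexin and calreticulin retain glycoproteins, and protein disulfide isomerases form disulfide bonds with oxidising power from Ero1 enzymes. Chains that do not fold are taken back out through the Sel1l and Syvn1 complex and degraded. When unfolded chains accumulate, the sensors Ern1 (IRE1), Atf6 and Eif2ak3 (PERK) raise the output of many of these genes, partly through the transcription factor Xbp1. Milk-producing epithelium and antibody-producing plasma cells both depend heavily on this machinery.

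Sequences of 2 kinds are shown because the stress response acts through them. The first is the stretch of Xbp1 RNA that Ern1 cuts out, after which Xbp1 is translated as an active transcription factor. The 26 bases removed lie in exon 4 of Xbp1, within its coding sequence, at chr11:5524279-5524304 on the plus strand of GRCm38, and are in capitals among the 100 bases from 5524242 to 5524341.
Xbp1: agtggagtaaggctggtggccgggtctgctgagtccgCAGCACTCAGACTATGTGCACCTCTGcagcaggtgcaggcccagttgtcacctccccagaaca

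The second is the ER stress response element (ERSE), a pair of promoter motifs, CCAAT and CCACG, 9 bases apart, to which NF-Y and Atf6 are known to bind. It was searched as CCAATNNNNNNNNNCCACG, on both strands, in RefSeq promoters of the GRCm38.p6 build that run from 250 bases before to 50 bases after a gene's start. Of the 45 genes, 38 had a promoter in this table, and 10 of these held the element (26.3%), against 37 of 27025 genes over the whole table (0.137%). These 10 were Hspa5, Hsp90b1, Calr, Canx, Dnajc3, Creld2, Pdia6, Ero1lb, Derl3 and Syvn1, and Hsp90b1 held it at 2 positions. The element of Hspa5 is shown alone, and those of Hsp90b1, Calr, Pdia6 and Derl3, which stand for the chaperones, an oxidative folding enzyme and a degradation gene, with 20 bases on either side, each 5′ to 3′ on the strand of the motif, with the motif letters in capitals.
Hspa5, chr2:34772025-34772043, plus strand: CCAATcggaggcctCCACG
Hsp90b1, chr10:86705618-86705676, minus strand: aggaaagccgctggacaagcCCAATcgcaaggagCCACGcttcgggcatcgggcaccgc
Hsp90b1, chr10:86705513-86705571, plus strand: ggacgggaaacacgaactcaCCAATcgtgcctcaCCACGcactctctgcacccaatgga
Calr, chr8:84847055-84847113, plus strand: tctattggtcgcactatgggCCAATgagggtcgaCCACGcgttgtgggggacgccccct
Pdia6, chr12:17266471-17266529, plus strand: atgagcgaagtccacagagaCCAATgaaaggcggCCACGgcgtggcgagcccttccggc
Derl3, chr10:75893222-75893280, minus strand: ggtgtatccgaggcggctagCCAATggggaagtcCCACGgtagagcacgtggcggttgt

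Counted from the gene starts of the RefSeq table, the centre of the element lay 56 bases before the start in Hspa5, 203 and 98 bases before it in Hsp90b1, 153 in Calr, 89 in Pdia6 and 147 in Derl3. The RefSeq start of Hspa5 is 34772090, while GENCODE M21 starts the gene at 34771970, so that in GENCODE the Hspa5 element lies within the first exon of a transcript. A shorter variant, ERSE-II (ATTGG and CCACG, 1 base apart), was found in Dnajb11 and Herpud1, 2 of the 38 genes (5.26%), against 0.0444% of all genes in the table. Neither the core of the unfolded protein response element (TGACGTGG) nor the C/EBP-ATF response element (TGATGNAAT) matched any of the 38 promoters, against 0.714% and 1.08% of all genes. A match is a run of letters, not a measured binding site.

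The libraries held between 25817975 and 37894237 estimated reads. The 15 milk protein genes of a marker list took 62.5% to 68.9% of the reads in the Knockout libraries and 66.3% to 72.9% in the Wild-Type libraries, and none of them was at 0 in any library. Of the 14 adipocyte markers, none was at 0 in any library and 11 were higher in Knockout. Of these, 7 had an unadjusted p under 0.05, against 6.31% of all genes tested, and no adipocyte marker was called (smallest edgeR adjusted p 0.219). Tsc1 itself averaged 10.1 ± 1.33 CPM over the Knockout libraries (SD, n = 6) and 10.7 ± 1.11 CPM over the Wild-Type libraries (SD, n = 5), with overlapping libraries in the RNA of the whole gland (log2 fold change -0.09 ± 0.11 SE, edgeR adjusted p = 0.771). CPM here are read counts scaled to library size with TMM factors, which adjust for library composition. The milk genes stayed in the library size. SDs below are over the same 6 and 5 libraries, and fold changes are Knockout over Wild-Type.

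The first question was how strongly the gland uses each gene. To set genes side by side, levels were taken per length, as TPM over the transcripts that hold at least 5% of a gene's reads. Qsox1, a sulfhydryl oxidase that forms disulfide bonds and is also secreted, had by far the highest level, 1905 ± 253 TPM (SD over all 11 libraries), 7.82 times that of the next gene. Its lowest library, at 1520 TPM, was above the highest library of any of the other 44 genes. Ssr4, a subunit of the translocon-associated complex, followed at 243.5 ± 16.46 TPM, and Xbp1 at 179 ± 41.7 TPM. The ranges of Ssr4 and Xbp1 overlapped. Ssr2, the next in order at 107 ± 12.7 TPM, stood below Xbp1 in every library of either gene.

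Below these 4 genes, which were the ones above 100 TPM, the levels formed a continuous series in which every neighbour in the order overlapped the next. The disulfide isomerase P4hb (93.7 ± 9.05 TPM), the channel subunit Sec61b (87.9 ± 13.5), calreticulin (Calr, 80.1 ± 20.2), Hspa5 (69.0 ± 18.1) and the chaperone cofactor Manf (63.7 ± 18.9) led it. At its lower end 19 genes were under 10 TPM. They included the degradation adaptor Sel1l (2.80 ± 0.597), the degradation factor Derl3 (2.47 ± 0.740) and the sensors Eif2ak3 (2.85 ± 0.585), Atf6 (2.04 ± 0.507) and Ern1 (0.822 ± 0.220), the lowest of all. The 3 stress sensors were thus among the least abundant members, while Xbp1, whose RNA Ern1 splices, was the third most abundant.

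**Figure D1:**
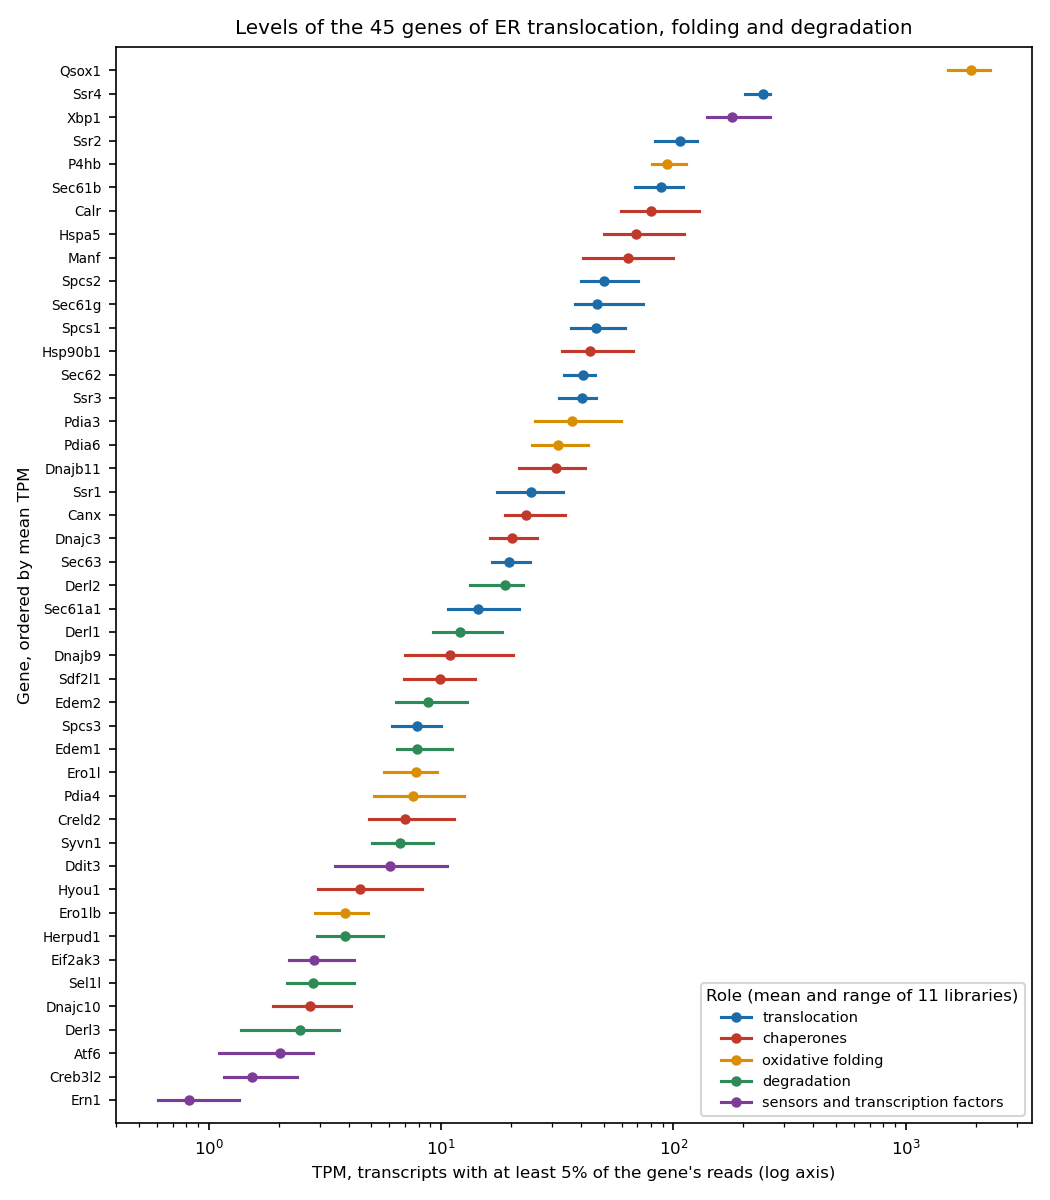
TPM of each of the 45 genes on a log axis, ordered by mean, over the 11 libraries. Points are means, lines run from the lowest to the highest library, and colours give the role; Qsox1 stands alone at 1905 TPM, and Ern1 is lowest at 0.822 TPM.

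Qsox1 (chr1:155776029-155812889, minus strand, GRCm38) alone supplied 69.6% to 78.0% of the reads of the 45 genes. Together the 45 genes took 1.04% to 1.23% of a Knockout library and 0.905% to 1.09% of a Wild-Type library before TMM scaling. The milk genes averaged 66.4% ± 2.50 in Knockout and 70.1% ± 2.45 in Wild-Type, with overlapping libraries and no test made. After scaling, Qsox1 ran from 6887 to 9059 CPM in Knockout, with a median of 8122. The 5 Wild-Type libraries held 8471, 7287, 7727, 7073 and 8133 CPM. All 5 lay inside the Knockout range, and no difference was detected (log2 fold change 0.06 ± 0.10 SE, 95% interval -0.15 to 0.28, edgeR adjusted p = 0.826).

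The main comparison asked whether the RNA of these genes in the whole gland differed between Knockout and Wild-Type libraries. None of the 45 passed an adjusted p of 0.05 in edgeR's quasi-likelihood test, where 7 of 12736 genes did (0.055%). DESeq2 also called none of the 45, against 146 genes in all (1.09% of those with an adjusted p). In edgeR, 3 had an unadjusted p under 0.05 (6.67%), against 12.4% of all genes tested: Dnajc10 and Sel1l, which were higher in Knockout, and Derl3, which was lower. No member had groups that did not overlap, against 1.33% of all genes. In total 14 were higher and 31 lower, with a median log2 fold change of -0.05, against -0.01 over all genes, of which 48.3% were higher. This split rests on TMM scaling. On TPM, which is not scaled for library composition, 38 of the 45 had a higher mean in Knockout (84.4%), as did 84.35% of all genes tested, with median log2 ratios of 0.19 and 0.23. After TMM scaling, 13 of the 15 milk protein genes of the secretory epithelium were lower and 2 higher (median -0.24, range -0.55 to 3.91). In each direction 1 of them had an unadjusted p under 0.05. All 4 B cell and all 6 T cell genes tested were lower (medians -2.77 and -1.39), 4 and 2 of them with an unadjusted p under 0.05. All 7 myoepithelial genes and 7 of 8 fibroblast genes were higher (medians 0.22 and 0.34), 2 of each with an unadjusted p under 0.05. No gene of these lists was called, and the part of these cells in the values of the 45 genes was not tested.

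Fold changes ran from -0.60 for Derl3 to 0.26 for Atf6, and 44 of the 45 genes differed by less than 1.3-fold either way, Derl3 being the exception. The 95% interval lay within a 1.5-fold change either way for 41 genes, so that for these a larger change is outside the interval. The number of members with an unadjusted p under 0.05 depended on single libraries: it was 10 without Wild-Type 4 (22.2%), 9 of them lower, 5 without Knockout 3 or without Wild-Type 1 (11.1%), and 1 without Knockout 2 or without Wild-Type 2 (2.22%). The share over all genes tested moved too, to 15.2% without Wild-Type 4, 11.6% without Knockout 3, 13.3% without Wild-Type 1, 11.2% without Knockout 2 and 8.18% without Wild-Type 2. The split of 14 higher and 31 lower became 24 higher without Wild-Type 5. In bulk tissue, fewer cells of a type and less RNA per cell cannot be told apart.

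**Figure D2:**
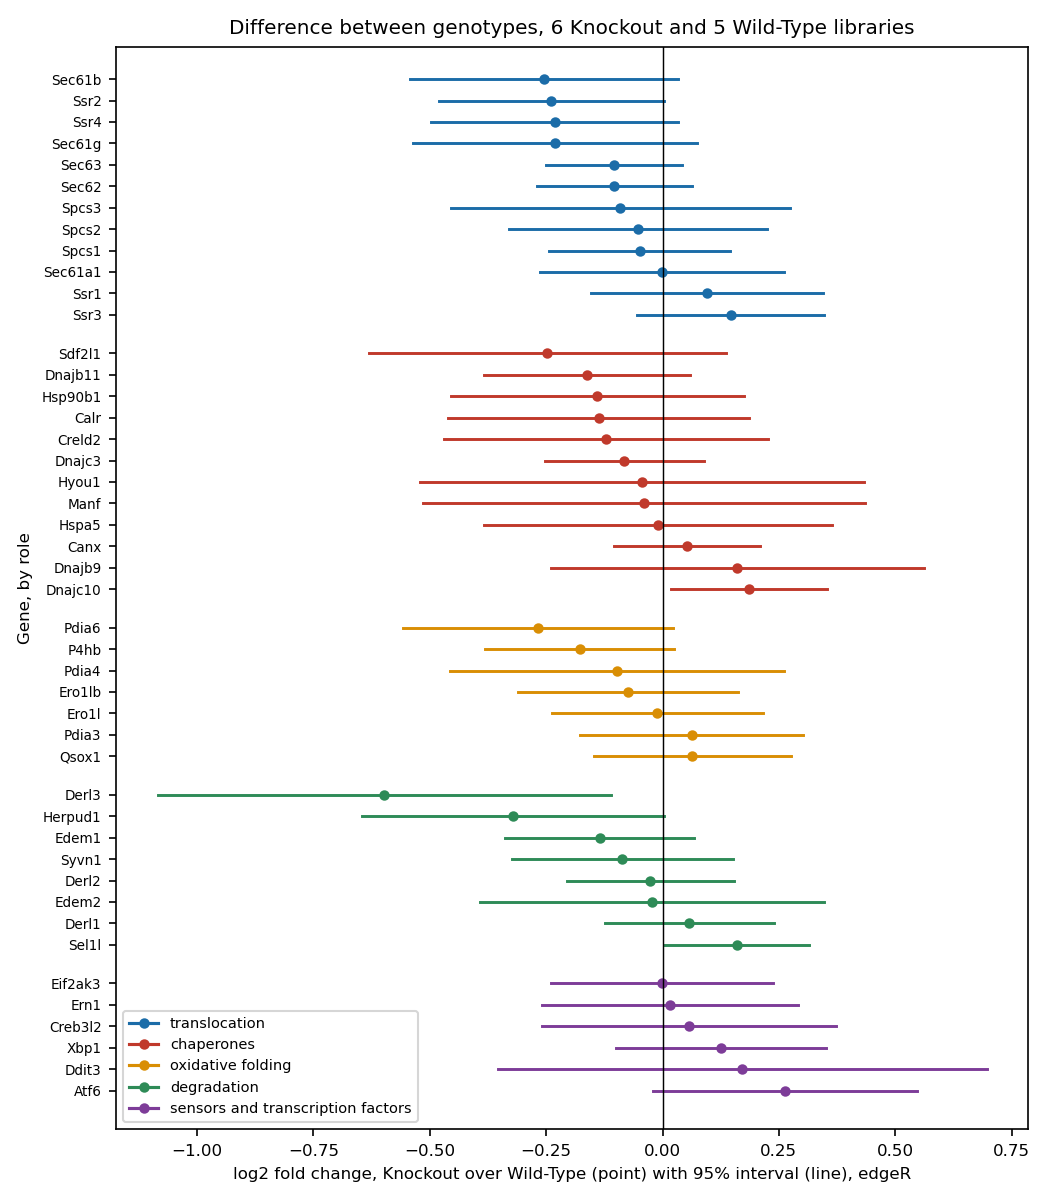
Log2 fold change, Knockout over Wild-Type, of the 45 genes by role, from edgeR, with 95% intervals as lines. The intervals of Derl3, Dnajc10 and Sel1l leave out 0 before adjustment; Derl3, at -0.60, is farthest from it.

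Among the 12 genes of entry into the ER, 2 were higher and 10 lower in Knockout, with a median log2 fold change of -0.10 and a smallest adjusted p of 0.410. Ssr2, of the translocon-associated complex, ran from 62.4 to 85.3 CPM in Knockout, with a median of 66.4. In Wild-Type it was at 82.1, 87.1, 87.3, 61.9 and 92.3 CPM. The Wild-Type libraries were high except Wild-Type 4, which was below every Knockout value (log2 fold change -0.24 ± 0.11 SE, edgeR adjusted p = 0.410).

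Sec61b, the small beta subunit of the channel, ran from 21.5 to 32.9 CPM in Knockout (median 24.5) and was at 25.6, 33.0, 35.9, 23.6 and 35.1 CPM in Wild-Type. Here again 3 Wild-Type libraries were high and Wild-Type 4 lay among the Knockout values (-0.25 ± 0.13 SE, edgeR adjusted p = 0.4585). Ssr4 ran from 116 to 174.5 CPM in Knockout (median 143) and was at 180, 162, 197, 133 and 175 CPM in Wild-Type. Wild-Type 1 and 3 were above all Knockout libraries, Wild-Type 5 level with the highest of them, and Wild-Type 4 below most of them (-0.23 ± 0.12 SE, edgeR adjusted p = 0.467). Of the other subunits, the pore-forming Sec61a1 had a log2 fold change of -0.001 and Sec61g of -0.23. The chaperone-recruiting Sec62 and Sec63 were both at -0.10, and Ssr1 and Ssr3 were at 0.10 and 0.15. The signal peptidase subunits Spcs1, Spcs2 and Spcs3 lay between -0.09 and -0.05.

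The values of 2 small subunits carry a further limit. Of the 31-base words in the listed sequences of Sec61g, 84.1% also occur in other annotated genes, most of them unnamed models, and for Sec61b the share is 61.5%. Reads of these genes could have been divided with the copies. The same holds for Dnajb9 (43.1%), Ero1lb (42.1%), Derl1 (39.6%) and Spcs2 (26.2%), while 36 members share no such word. In 8 members, among them Qsox1, Hsp90b1 and Manf, a transcript of the opposite strand overlaps coding exons; the library kit keeps strand, per the labels, but whether the quantification used it is not given in the sources used here.

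The chaperones were the role in which libraries of one genotype differed most from each other. Their median coefficient of variation within genotypes was 20.4%, against 14.5% over all 45 genes and 16.3% over all genes tested. Hspa5 (chr2:34771970-34777547, plus strand), the central Hsp70 of the ER, was at 368, 241.5, 357, 259, 355 and 248 CPM in Knockout 1 to 6, and at 309, 358, 275, 206 and 387 CPM in Wild-Type 1 to 5. Knockout 1, 3 and 5 were thus high and Knockout 2, 4 and 6 low, with no value between 259 and 355 CPM, and the Wild-Type libraries spanned more than this whole range. No difference between genotypes was detected (log2 fold change -0.01 ± 0.17 SE, 95% interval -0.38 to 0.36, edgeR adjusted p = 0.988). Its sign turned under some settings, to 0.46 where transcript lengths per library entered the fit.

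The same libraries were high for Hyou1 (Grp170), which exchanges the nucleotide of Hspa5, and for Manf, a secreted cofactor of Hspa5. Hyou1 was at 48.6, 39.2 and 41.3 CPM in Knockout 1, 3 and 5, and at 28.05, 24.5 and 24.9 CPM in Knockout 2, 4 and 6. Manf was at 50.5, 49.8 and 49.5 CPM against 34.1, 31.9 and 33.3 CPM in these libraries. In Wild-Type, all 3 genes were highest in Wild-Type 5, next in Wild-Type 2, and lowest in Wild-Type 4, where Manf was at 26.04 CPM against 60.3 in Wild-Type 5. None of them differed between genotypes beyond this spread (Hyou1 -0.04 ± 0.22 SE, Manf -0.04 ± 0.22 SE, edgeR adjusted p = 0.955 and 0.959).

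Hsp90b1 (Grp94), the Hsp90 of the ER, followed this order in part. It was at 259, 212, 252, 182, 185 and 191 CPM in Knockout 1 to 6, and at 212, 272, 239, 167 and 287 CPM in Wild-Type 1 to 5. Knockout 5, which was high for Hspa5, was low here, and the groups overlapped throughout (log2 fold change -0.14 ± 0.15 SE, edgeR adjusted p = 0.725).

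**Figure D3:**
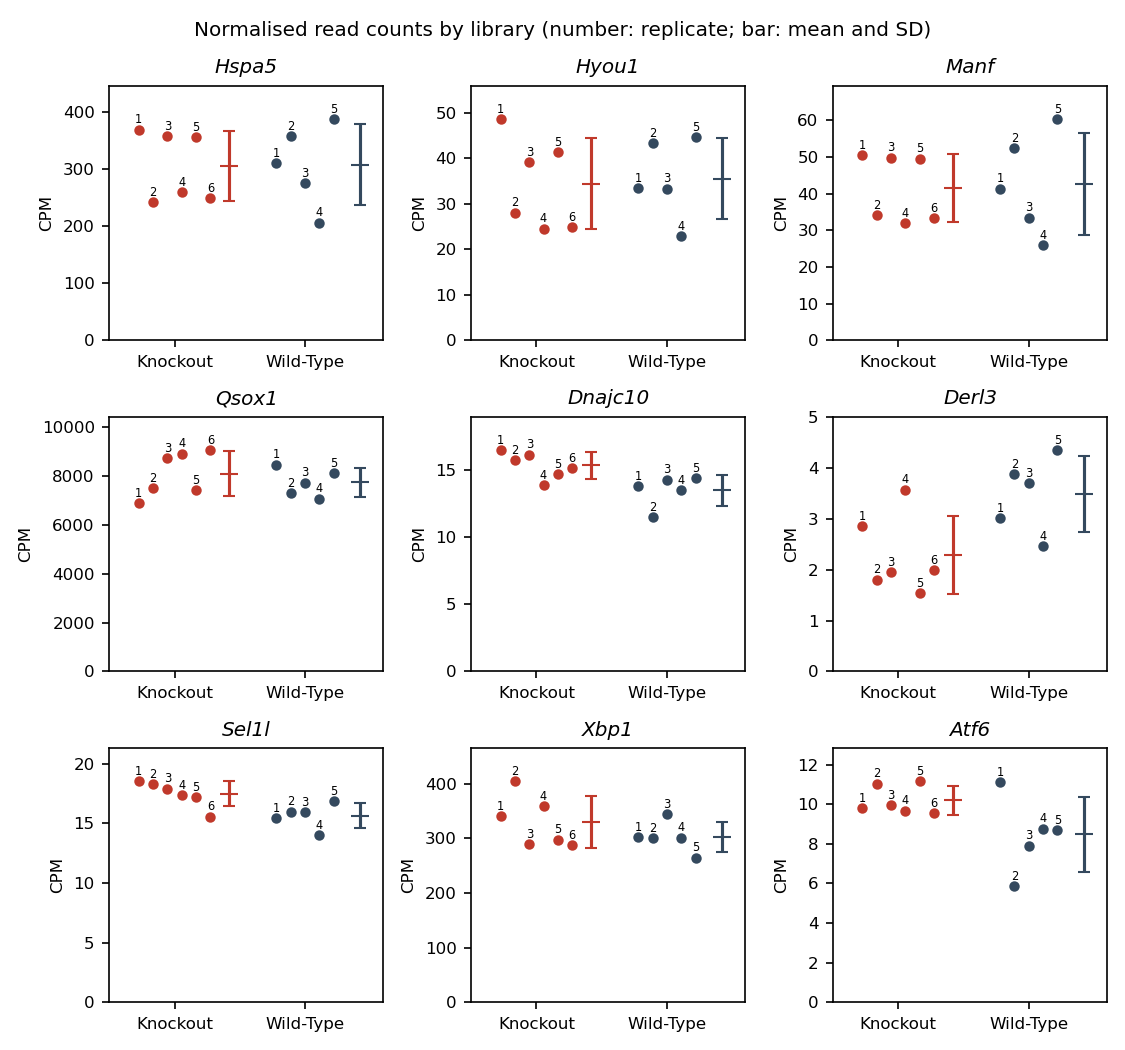
Normalised read count in CPM of 9 genes in each library, with replicate numbers beside the points and bars for mean and SD of 6 Knockout and 5 Wild-Type libraries. Knockout 1, 3 and 5 are above Knockout 2, 4 and 6 for Hspa5, Hyou1 and Manf, and the genotypes overlap in all 9 panels.

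Dnajc10 (chr2:80315466-80354043, plus strand; ERdj5), a co-chaperone and reductase that breaks disulfide bonds before degradation, had the smallest unadjusted p of the chaperones. It ran from 13.9 to 16.48 CPM in Knockout, with a median of 15.4, and was at 13.8, 11.5, 14.3, 13.5 and 14.4 CPM in Wild-Type. Of the Knockout libraries 5 of 6 were above all Wild-Type values, while Knockout 4 lay among them (log2 fold change 0.19 ± 0.08 SE, 95% interval 0.02 to 0.35, edgeR adjusted p = 0.368). Its unadjusted p stayed under 0.05 in 7 of the 11 fits that left out a library, and not without Knockout 1, 2 or 3 or Wild-Type 2. Dnajb11 (ERdj3), another co-chaperone, ran from 29.95 to 37.1 CPM in Knockout (median 34.6) and was at 34.1, 45.1, 37.4, 30.6 and 43.5 CPM in Wild-Type. Wild-Type 2, 3 and 5 were above all Knockout libraries, Wild-Type 3 only just, and the other 2 lay within the Knockout range (-0.16 ± 0.10 SE, edgeR adjusted p = 0.537).

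Of the other chaperones, calnexin (Canx) varied little, with a coefficient of variation of 7.11% and a log2 fold change of 0.05, and Calr was at -0.14. The Hspa5 partners Sdf2l1, Dnajc3 and Dnajb9 were at -0.25, -0.08 and 0.16, and Creld2 at -0.12. Across the 12, 3 were higher and 9 lower, with a median of -0.06.

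Among the 7 oxidative folding enzymes, 2 were higher and 5 lower, with a median log2 fold change of -0.07. Pdia6, another disulfide isomerase, had the smallest p of them. Its count includes a listed transcript that the annotation lacks and that was assigned through the authors' gene values, as for Xbp1. It ran from 74.2 to 106 CPM in Knockout, with a median of 87.3, and was at 91.3, 112, 125, 79.1 and 122.5 CPM in Wild-Type. Wild-Type 2, 3 and 5 exceeded all Knockout libraries, and Wild-Type 4 was near the bottom of the Knockout range (-0.27 ± 0.13 SE, 95% interval -0.56 to 0.02, edgeR adjusted p = 0.4385).

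P4hb, the abundant disulfide isomerase that is also a subunit of collagen prolyl hydroxylase, ran from 301 to 367 CPM in Knockout (median 308) and was at 366, 373, 416, 302 and 385 CPM in Wild-Type. Wild-Type 2, 3 and 5 exceeded all Knockout libraries, Wild-Type 1 exceeded all but Knockout 3, and Wild-Type 4 was among the lowest (-0.18 ± 0.09 SE, edgeR adjusted p = 0.467). Pdia4 was at 44.0, 37.6, 34.2, 30.4, 30.0 and 31.1 CPM in Knockout 1 to 6, and at 29.3, 47.7, 31.7, 28.3 and 48.3 CPM in Wild-Type 1 to 5. Its high libraries were Knockout 1, Wild-Type 2 and Wild-Type 5, one set in each genotype (-0.10 ± 0.17 SE, edgeR adjusted p = 0.842).

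The oxidases Ero1l and Ero1lb, which pass electrons from the isomerases to oxygen, gave log2 fold changes of -0.01 ± 0.10 and -0.07 ± 0.11 SE. Ero1l covered 18.4 to 25.8 CPM in Knockout, 19.2 to 24.3 in Wild-Type, and Ero1lb 9.91 to 13.4 and 9.89 to 14.3 CPM, so that each genotype covered nearly the same range. The edgeR adjusted p was 0.979 and 0.818. Pdia3, which serves the calnexin cycle, was at 0.06.

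Of the 8 degradation genes, 2 were higher and 6 lower, with a median log2 fold change of -0.06. Derl3 (chr10:75893413-75895941, plus strand) encodes a derlin, a membrane protein of the exit route from the ER. It was at 2.86, 1.81, 1.95, 3.575, 1.54 and 1.99 CPM in Knockout 1 to 6, and at 3.01, 3.88, 3.70, 2.46 and 4.35 CPM in Wild-Type 1 to 5. Of the Knockout libraries 4 were below all Wild-Type values, while Knockout 1 and 4 were among them. The log2 fold change was -0.60 ± 0.22 SE (95% interval -1.08 to -0.11, edgeR adjusted p = 0.340), from 42 to 129 reads per library. Left out in turn, the libraries gave -0.77 to -0.50, and without Wild-Type 5 the unadjusted p was above the 0.05 threshold. The 2 other derlins were near 0, at 0.06 for Derl1 and -0.03 for Derl2, which covered 15.1 to 19.4 CPM in Knockout, 16.4 to 19.3 in Wild-Type.

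Derl3 is also a marker of plasma cells, and the list of 16 plasma cell genes used here holds Xbp1 as well. Xbp1 went the other way, with a log2 fold change of 0.13. Of the 14 plasma cell genes outside the 45, 13 were lower in Knockout and 1 higher (Sdc1, 0.18), and none was called. Of the lower ones 4 had an unadjusted p under 0.05, against 6.09% of all genes tested. None of the 14 was at 0 in any library. Their summed level ran from 641 to 6144 TPM in Knockout and from 1824 to 6757 TPM in Wild-Type. The mean of their centred log2 CPM was 0.53, -0.03, -0.61, 0.0015, -1.44 and -0.14 in Knockout 1 to 6, and -0.33, 1.24, -0.30, -0.05 and 1.12 in Wild-Type 1 to 5. The highest values, in Wild-Type 2 and 5, were in the libraries with the most Derl3, and the lowest, in Knockout 5, in the one with the least. Wild-Type 3, next in Derl3 at 3.70 CPM, was at -0.30 in the plasma cell genes. Fkbp11, a folding enzyme of secretory cells on that list, was at -0.69 ± 0.29 SE on the log2 scale (edgeR adjusted p = 0.379). The part of plasma cells in the Derl3 value was not tested.

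**Figure D4:**
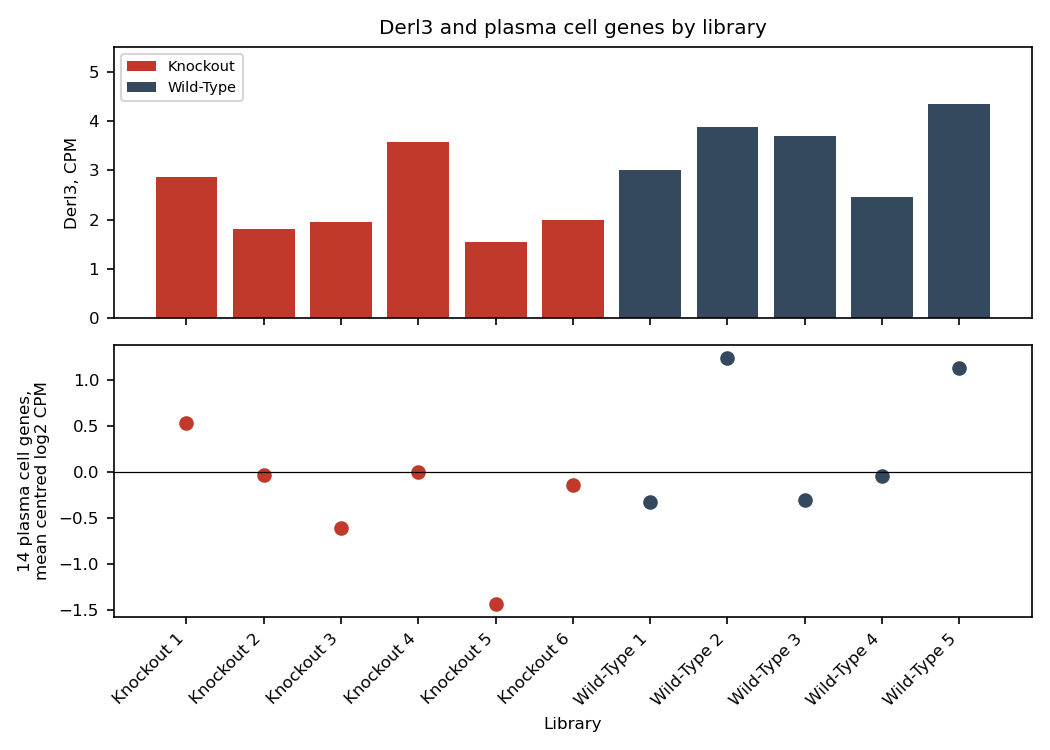
Derl3 in CPM (bars, upper panel) and the mean centred log2 CPM of 14 plasma cell genes (points, lower panel) in each library. Both are highest in Wild-Type 2 and 5 and lowest in Knockout 5, where Derl3 is at 1.54 CPM.

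The spread of the chaperones partly followed the same libraries. Wild-Type 2 and 5 were high for Hspa5, Hsp90b1, Dnajb11, Sdf2l1 and Creld2, and for the isomerase Pdia4. Dnajc10 and Canx were below their means in Wild-Type 2 (centred log2 CPM -0.324 and -0.0507), and Dnajb9 in Wild-Type 5 (-0.0535). These 2 libraries were also the highest in the 8 listed B cell genes. The summed level of those genes was 34.7 and 51.6 TPM there and between 0.701 and 12.3 TPM in the other 9 libraries. The 8 listed T cell genes were highest there too, at 19.96 and 37.9 TPM against at most 13.7 TPM elsewhere. Macrophage genes (mean centred log2 CPM) were at 0.39 in Wild-Type 5, 0.36 in Knockout 1 and 0.33 in Wild-Type 2. Knockout 5 goes the other way for Hspa5, with 355 CPM beside the lowest summed level of both the plasma cell and the B cell genes. The part of these cells in the chaperone values was not tested.

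Sel1l (chr12:91806043-91849157, minus strand), the adaptor of the ubiquitin ligase Syvn1, was at 18.5, 18.3, 17.9, 17.4, 17.2 and 15.55 CPM in Knockout 1 to 6. In Wild-Type it was at 15.4, 15.98, 15.9, 13.99 and 16.9 CPM. All Knockout libraries except Knockout 6 were above all 5 of the other genotype (log2 fold change 0.16 ± 0.07 SE, 95% interval 0.01 to 0.31, edgeR adjusted p = 0.390). Its unadjusted p stayed under 0.05 in 3 of the 11 fits that left out a library, those without Knockout 5, Knockout 6 or Wild-Type 5. Its partner Syvn1 was at -0.09 ± 0.11 SE.

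Herpud1, a stress-induced membrane protein of the same complex, was at 10.25, 8.52, 8.32, 8.17, 8.18 and 7.05 CPM in Knockout 1 to 6. In Wild-Type it was at 10.5, 12.85, 8.66, 7.47 and 13.3 CPM, with Wild-Type 2 and 5 again the highest (-0.32 ± 0.15 SE, edgeR adjusted p = 0.407). The mannosidase-like proteins Edem1 and Edem2, which direct glycoproteins to degradation, were at -0.14 and -0.02.

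Of the 6 sensors and transcription factors, 5 were higher and 1 lower in Knockout, and the lower one, Eif2ak3, was at -0.001; the median log2 fold change was 0.09 and the smallest adjusted p 0.437. Atf6, the sensor that is cleaved in the Golgi to a transcription factor, ran from 9.55 to 11.2 CPM in Knockout, with a median of 9.86, and was at 11.1, 5.88, 7.91, 8.77 and 8.70 CPM in Wild-Type. All Knockout libraries lay above 4 of the 5 Wild-Type libraries and Wild-Type 1 lay at their top (0.26 ± 0.13 SE, 95% interval -0.02 to 0.55, edgeR adjusted p = 0.437). Ern1, with 5.35 to 7.65 CPM in Knockout, 5.47 to 7.13 in Wild-Type, was at 0.02 ± 0.13 SE, and Creb3l2, a relative of Atf6, at 0.06 ± 0.15 SE. Ddit3 (CHOP), which the Eif2ak3 branch induces, was at 2.53, 4.77, 3.83, 2.67, 2.39 and 5.91 CPM in Knockout 1 to 6 and at 3.325, 3.05, 2.54, 4.13 and 3.30 CPM in Wild-Type 1 to 5. It was high in Knockout 2 and 6 and otherwise mixed, the widest spread of all 45 genes, with a coefficient of variation of 32.4% (log2 fold change 0.17 ± 0.24 SE, edgeR adjusted p = 0.809). Knockout 2 and 6, high for Ddit3, were low for Hspa5, Hyou1 and Manf.

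Xbp1 (chr11:5520659-5525893, plus strand) was at 341, 405, 289, 359, 298 and 288 CPM in Knockout 1 to 6, a mean of 330 ± 47.0 CPM. In Wild-Type it was at 302, 300, 344, 301 and 265 CPM, a mean of 303 ± 28.02 CPM. Knockout 2 and 4 were above all Wild-Type libraries, and the other 4 Knockout libraries lay within the Wild-Type range (log2 fold change 0.13 ± 0.10 SE, edgeR adjusted p = 0.647). Wild-Type 5, which was highest for Hspa5, was lowest for Xbp1.

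The splicing that removes the 26 bases shown above could not be read from the tables. The listed transcript with most Xbp1 reads is 1116 bases long, which is the computed length of the spliced coding sequence, and another, of 804 bases, has the length of the unspliced one. Only 24 of the 1086 words of 31 bases in the spliced coding sequence are absent from the unspliced transcript. The spliced coding sequence ends 338 bases beyond the stop codon of the unspliced one, in sequence that the annotated unspliced transcript also holds. Reads of those 338 bases, spliced or not, can be assigned to the 1116-base entry. Its share of Xbp1 reads was 64.0% ± 0.583 in Knockout and 64.3% ± 0.769 in Wild-Type, a difference of -0.378 percentage points (exact two-sided permutation test over 462 splits, p = 0.372, and 0.883 adjusted over the 3 transcripts tested). The 804-base entry held 28.7% in both groups (exact permutation p = 0.996), and a 645-base entry 7.30% and 6.91% (exact permutation p = 0.589). The 804-base entry ran from 27.1% to 30.8% over the libraries and the 645-base entry from 5.77% to 9.25%. These are shares of reads between overlapping sequences, not levels of splicing.

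The genes with an ERSE were set beside the other members with a known promoter. Of the 10 with the element, 1 was higher in Knockout (Canx, 0.05), the median log2 fold change was -0.10, and the median coefficient of variation within genotypes was 17.7%. Of the 28 without it, 11 were higher, with a median of -0.02 and a median coefficient of variation of 13.5%. These are descriptions, not tests, and Derl3 is one of the 10. The mean centred log2 CPM of the 10 was 0.135, -0.151, 0.0892, -0.113, -0.173 and -0.174 in Knockout 1 to 6 and -0.0323, 0.214, 0.0993, -0.236 and 0.341 in Wild-Type 1 to 5. It was high in Wild-Type 5 and 2 and low in Wild-Type 4, and the mean of the 28 other genes had the same sign in 10 of 11 libraries, Wild-Type 1 being the exception, and was smaller in size in each. Both genotypes held high and low libraries.

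**Figure D5:**
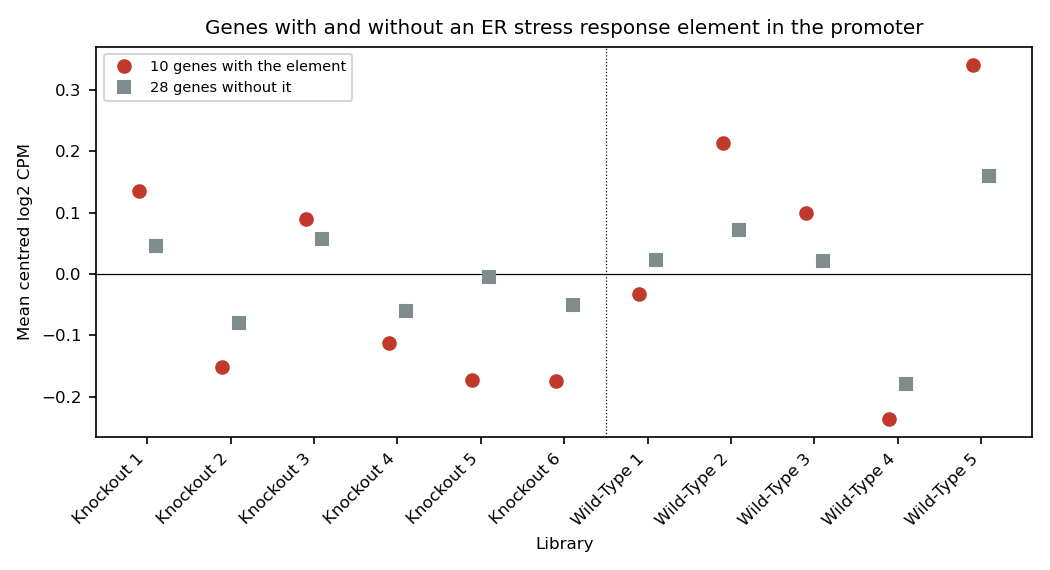
Mean centred log2 CPM in each library of the 10 genes with an ER stress response element in their promoter (circles) and of the 28 without one (squares). The circles run from -0.236 in Wild-Type 4 to 0.341 in Wild-Type 5, both in the same genotype.

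The other genes of the pathway were read from the same fit. Of 125 further genes on 5 lists, 119 were tested, none was called, and 9 had an unadjusted p under 0.05 in the higher and 12 in the lower direction (all genes tested: 6.31% and 6.09%). Among 23 other translocation genes, 6 were higher and 17 lower, and the smallest p was that of Sec61a2, a second pore-forming gene (log2 fold change 0.25 ± 0.11 SE, edgeR adjusted p = 0.386). Among 21 genes of glycan transfer and trimming, 6 were higher and 15 lower, with 3 of the lower ones at an unadjusted p under 0.05, led by the oligosaccharyltransferase subunit Krtcap2 (-0.25 ± 0.10 SE, edgeR adjusted p = 0.360).

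Among 29 other folding enzymes, 1 was higher and 6 were lower at an unadjusted p under 0.05, and Sil1, a nucleotide exchange factor of Hspa5, had the smallest p (-0.28 ± 0.09 SE, edgeR adjusted p = 0.310). Among 23 other degradation genes, 3 were higher and 3 lower at that level, led by Erlin1, a membrane protein that directs receptor degradation (0.40 ± 0.14 SE, edgeR adjusted p = 0.313). Among 23 other stress response regulators, 4 were higher and 0 lower at that level. The smallest p was that of Stc2, a secreted glycoprotein induced by the Eif2ak3 branch, which averaged 22.0 ± 3.29 CPM over the Knockout and 15.2 ± 1.43 over the Wild-Type libraries (0.53 ± 0.11 SE, edgeR adjusted p = 0.138).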

How the data were processed

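RNA-seq libraries of whole mouse mammary gland, 6 Knockout and 5 Wild-Type, were grouped by sample title. Per the submitters' processing notes the authors used Salmon 1.3.0, DESeq2 1.28.1 and the GRCm38.p6 build. Per the file headers, each deposited table gives a transcript's length and effective length in bases, its TPM and its estimated count of reads. A further file that the authors deposited holds values per gene, taken here as a normalised signal; its values equal the counts divided by size and transcript length factors within 2% in every library for 43 of the 45 genes. How replicates were made and how strand was used are not given in the sources used here.

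Estimated counts were summed per gene with the GENCODE M21 annotation, which held 57452 of 58204 transcripts, and rounded. The annotation lacked the main transcripts of Pdia6 and Xbp1. Adding 1 listed transcript to each brought their values to within 0.00876% and 0.00224% of the authors' table, against 56.6% and 37.9% for the next best candidate, so these 2 were kept. The unmatched rest took 0.195% to 0.265% of the reads. Of the listed transcripts of the 45 genes found in the annotation, 93.6% had their coding length within 3 bases, so untranslated regions were mostly left out.

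Genotypes were compared over 12736 genes with edgeR 4.0.16 (quasi-likelihood F test, robust, TMM, low counts removed by filterByExpr with a minimum count of 10) in R 4.3.3, with genotype as the only term, Benjamini-Hochberg adjustment over all genes and a threshold of 0.05. SEs are the fold change over the root of F. The common biological coefficient of variation was 24.1%. The procedure was tested on simulated data. DESeq2 1.42.0 and limma 3.58.1 served as alternatives. Centred values are log2 CPM (prior count 2) minus the gene's mean over the 11 libraries. TPM levels use transcripts with at least 5% of a gene's reads, a choice made after seeing that very short listed transcripts distort the plain sum. The count of directions on TPM was also added after seeing the data.

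The 45 genes, the lists and the rules for named genes were chosen with earlier results of these data known. Named with full values were, in each role, the member with the highest summed TPM and the 2 with the smallest p, and Hspa5, Hsp90b1, Pdia4, Ero1l, Ero1lb, Herpud1, Xbp1, Ddit3 and Derl3; of each pathway list, the gene with the smallest p. Hyou1 and Manf were added after their values were seen. Protein sequences were not analysed here.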

Additional observations from a re-analysis of the deposited data

How the results depend on the processing

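None of the 45 genes was called under any of the 9 alternatives with all libraries or with any library left out, where the smallest adjusted p were 0.2237 and 0.2052. Over all genes, 7 calls became 146 with DESeq2, 137 with DESeq2 and transcript lengths, 0 with the replicate block, and 0 to 28 with a library left out (28 without Knockout 2, 0 without Knockout 3 or 6). The 3 members with an unadjusted p under 0.05 became 5 without the low count filter, 5 in edgeR with transcript lengths, 6 in DESeq2 with them, 1 with the replicate block (Sel1l), and 1 to 10 with a library left out. The shares over all genes in these fits were 10.8%, 11.4%, 10.5%, 8.10% and 8.18% to 15.2%, against 12.4% in the main comparison. Between Knockout and Wild-Type libraries of the same replicate number, correlations of deviations ran from -0.218 to 0.186. Of the 5 Knockout libraries compared, 1 matched its own number best. These values cannot tell whether samples shared a litter or batch, which the labels do not name.

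The median log2 fold change of the 45 ran from -0.12 without Wild-Type 4 to 0.015 without Wild-Type 5. Signs turned for 5 of the genes named by rule. Hspa5, at -0.01, was at 0.46 in edgeR with transcript lengths, 0.46 in DESeq2 with them, 0.36 in limma on the authors' table and 0.055 with the replicate block, and ran from -0.12 to 0.086 with a library left out. Ddit3 was at -0.051 with the replicate block and from -0.0086 to 0.28 with a library left out; Ero1l ran from -0.060 to 0.043, Derl2 from -0.064 to 0.013 and Pdia4 from -0.18 to 0.015. The added Hyou1 and Manf turned too, with ranges of -0.16 to 0.051 and -0.17 to 0.12 with a library left out. The per-library lengths of Hspa5 include a short transcript, whose values are given among the other observations. The cause of these changes was not tested. Depth limits Derl3 most, at 42 to 129 reads per library. No Dixon test on 54 groups of values passed.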

Other observations

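The deposited gene values of Hspa5 depart from its reads in Knockout 1, 2 and 5 and in Wild-Type 1. A listed Hspa5 transcript of 129 bases, annotated as subject to nonsense-mediated decay, held 0.0838% of the Hspa5 reads in Knockout 1 but 56.8% of its summed TPM, 39.6% of it in Knockout 2, 30.0% in Knockout 5 and 14.9% in Wild-Type 1, and 0% in the other 7 libraries. In the authors' table Hspa5 is at 22100 in Knockout 1 and 10400 in Knockout 2, against 9460 in Knockout 3, where its CPM was 357 beside 241.5 in Knockout 2. Both were divided by their mean over the 11 libraries. The ratio of the authors' value to the CPM was then 1.83, 1.32 and 1.14 in Knockout 1, 2 and 5 and 0.947 in Wild-Type 1. In the other 7 libraries it ran from 0.79 to 0.808. Without that transcript Hspa5 averaged 69.0 TPM, against 89.95 TPM with it.

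The same was seen in other members with very short listed transcripts. For Ern1, a 201-base transcript held 68.8% of summed TPM in Knockout 5 and 70.6% in Wild-Type 2 and 0% elsewhere, and the authors' values of those libraries were 588 and 475, against 136 to 191 in the other 9, while its CPM ran from 5.35 to 7.65. For Dnajb9, a 156-base transcript with 0.719% to 3.24% of the reads held 36.2% to 72.8% of its TPM. Derl2 averaged 25.7 TPM with all listed transcripts and 18.75 with the main ones.

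Skeletal muscle genes varied more between libraries than any other marker list, from 2.59 to 891 summed TPM, with Knockout 1 highest, which was also highest of the Knockout libraries for Hspa5, Hyou1, Manf, Calr, Hsp90b1 and Pdia4. Knockout 2, second in muscle genes at 141 TPM, was lowest of the Knockout libraries for Hspa5, and Knockout 3 and 5, at 10.4 and 12.2 TPM, were high for Hspa5, Hyou1 and Manf. The part of such tissue in those values was not tested.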
